A study of Mus musculus with 8 samples.

Results

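The 35 genes described here are interferon-stimulated genes, a set of transcripts that cells raise when an interferon binds its receptor. They were chosen by name, as the rows of the normalised read-count table that carry the symbols of well-known interferon-stimulated genes, and all 35 were among the 23337 genes of the table. For a test, a gene needed to average 10 or more normalised reads across the 6 compared libraries, which 34 members did. The exception was Ifi44, an interferon-induced gene of uncertain function, with an average of 8.88.

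The study asked how tamoxifen, the drug used to switch on inducible Cre recombinases, affects gene expression in endothelial cells of mouse embryos. Cells were sorted as endothelial by flow cytometry from whole embryos at E15.5, and ribosomal RNA was depleted before sequencing. One group came from mothers given tamoxifen by gavage at E12.5, and the other received none. Embryos of both groups belonged to the line Cdh5-CreERT2(PAC);Rosa26fsTRAP, in which a tamoxifen-inducible Cre is driven by the endothelial gene Cdh5 and the Rosa26 locus carries a Cre-dependent reporter, while the genotype field of each sample reads wild type. No group received tamoxifen without the Cre, so the drug and the recombinase it activates cannot be told apart. The labels do not tie libraries to litters or embryos. Each p-value therefore reflects only how these libraries scatter, which may be technical.

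The labels name 8 samples, 4 per group, but the header of the table has 9 fields against 10 in each data line. Wherever the header is placed, the untreated group takes columns 3 to 5 and the tamoxifen group columns 7 to 9. These 6 libraries were compared, 3 per group, and are numbered 1 to 3 in table order (no_tamoxifen_1 and so on). Column 6 is a library without tamoxifen under one placement and with tamoxifen under the other. Column 10 is a tamoxifen library under one placement and has no name under the other. Both are shown apart.

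Interferons of type I and type III signal through the kinases JAK1 and TYK2 to the transcription factor ISGF3, which contains STAT2 and IRF9. ISGF3 binds a short DNA element, the interferon-stimulated response element, in the promoters of target genes, and IRF7, itself a target, amplifies the response. The products sense viral RNA, degrade RNA, block translation or trap virions, and macrophages are known for a high resting level of many of them.

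The response element was looked for in promoter sequence because it is the feature these genes are known to share. Promoter windows from RefSeq (build GRCm38.p6, 250 bases before to 50 after a start site) were found for 26 of the 35 genes. The core of the element was searched as GAAA, then any 2 bases, then GAAA, on both strands, so that it reads as TTTC, 2 bases and TTTC in the other direction. It occurred in the windows of 15 of these 26 genes (57.7%). Among all 27025 genes with a window, 1079 (3.99%) held it. Matches may overlap one another, as in Isg15, where 3 matches share bases, and other IRF proteins are known to bind the same GAAA repeats. The windows below are 60 bases each, read 5′ to 3′ on the strand of the gene and lying wholly before the start site, with the matched letters in capitals. They show Isg15, Ifit1 and Ifit3 as textbook targets, Bst2 as the member with the highest level per length, Oas1a as a member listed at 0 in column 6, and Stat2 and Cxcl10 as members whose groups did not overlap.
Isg15 (chr4:156200856-156200915, minus strand): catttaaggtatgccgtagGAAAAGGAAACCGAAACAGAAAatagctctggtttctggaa
Ifit1 (chr19:34640770-34640829, plus strand): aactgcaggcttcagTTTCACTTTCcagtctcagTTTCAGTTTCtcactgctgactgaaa
Ifit3 (chr19:34583365-34583424, plus strand): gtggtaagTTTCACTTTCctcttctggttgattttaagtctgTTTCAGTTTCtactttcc
Bst2 (chr8:71537565-71537624, minus strand): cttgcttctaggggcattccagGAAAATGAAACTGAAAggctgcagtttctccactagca
Oas1a (chr5:120907526-120907585, minus strand): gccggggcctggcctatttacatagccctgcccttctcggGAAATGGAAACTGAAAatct
Stat2 (chr10:128270251-128270310, plus strand): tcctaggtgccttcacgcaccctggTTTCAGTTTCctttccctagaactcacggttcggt
Cxcl10 (chr5:92349068-92349127, minus strand): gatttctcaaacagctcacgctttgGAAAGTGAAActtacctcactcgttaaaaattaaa
A match describes these letters only. The 11 members with a window and no match include Irf7, Irf9, Ifit2 and Isg20.

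Levels differed widely between the members. Per kilobase of annotated exon, the mean over the 6 libraries ran from 1.45 normalised reads for Ifi44 to 677 for Bst2, which encodes tetherin, a membrane protein that holds budding virions at the cell surface. Trim25, which encodes a ubiquitin ligase that acts on the RNA sensor RIG-I, followed at 425 normalised reads per kilobase. The mitochondrial protein gene Ifi27l2a was next at 237 and the chemokine gene Cxcl10 at 157. Ifit1 (8.67), Mx2 (9.37) and Xaf1 (10.8) were lowest after Ifi44. Exon lengths were the union of all annotated exons in GENCODE M21, so a gene with retained introns in its annotation, such as Irf7, is given too low a level per length.

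No interferon-stimulated gene passed the test between the groups. In limma with Benjamini-Hochberg adjustment over all genes, 0 of the 34 tested members passed an adjusted p of 0.05, where 0.0445% of all 13480 genes tested did, all of them higher with tamoxifen. The lowest limma adjusted p of a member was 0.462, for Cxcl10. At an unadjusted p under 0.05, 2 members were higher, Stat2 and Cxcl10 (5.88%, against 4.89% of all genes), and 0 were lower (against 4.12% of all genes). On recovered whole reads, edgeR and DESeq2 each called 0 members, where they called 5 and 275 of all 13480 genes. The median log2 fold change of the 34 was 0.04, beside -0.02 over all genes tested, and 19 members were positive (55.9%, against 46.5% of all genes). That median was -0.36 without tamoxifen_3 and 0.33 without tamoxifen_2, so its sign rests on which library is kept.

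The spread between libraries set how little could be resolved. Standard errors of the log2 fold changes ran from 0.10 to 0.73, with a median of 0.32, and the 95% intervals of most members took in changes in both directions. A p that misses the threshold does not show that the groups were alike. For Oas3 the interval ran from -1.90 to 1.43 on the log2 scale, and for Trim25, with the smallest error, from -0.13 to 0.34.

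**Figure D1:**
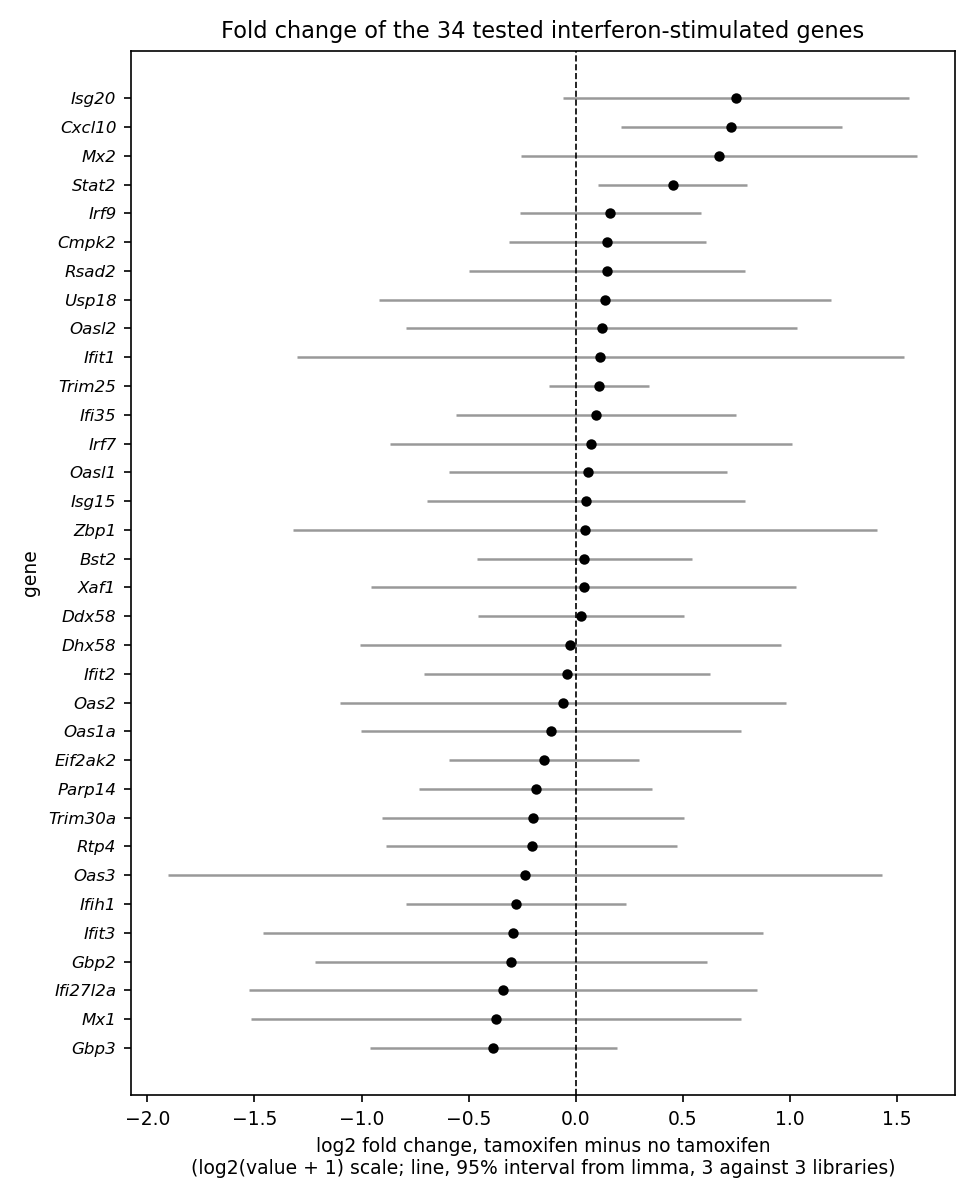
Log2 fold change (tamoxifen minus no tamoxifen, on the log2(value + 1) scale) of the 34 tested interferon-stimulated genes, with 95% intervals from limma over 3 against 3 libraries. All but Cxcl10 and Stat2 have an interval that includes 0, and neither of those passed after adjustment over all genes.

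The libraries with tamoxifen spread more widely in these genes than the libraries without it. The SD of log2(value + 1) between the 3 libraries without tamoxifen had a median of 0.18 over the members, beside 0.18 over all genes tested. With tamoxifen it was 0.61, beside 0.21 over all genes. The SD was larger with tamoxifen in 33 of 34 members (97.1%, against 59.7% of all genes), with Trim25 as the exception. The highest library exceeded the lowest by at least 2-fold in 22 of 34 members with tamoxifen (64.7%, against 17.5% of all genes) and in 2 of 34 without it, Ifit1 and Ifit3 (5.88%, against 8.78%). These counts describe 3 libraries per group, and no test was made of the difference in spread.

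Counting error alone was smaller than this spread. The SD that the recovered reads alone would give had a median of 0.12 over members with tamoxifen and 0.11 without it. The observed SD was over 2 times the counting value in 33 of 34 members with tamoxifen (97.1%, against 59.6% of all genes) and in 17 of 34 without it (against 49.8%), the latter close to the share of all genes. The SD was below the counting value in 7 members without tamoxifen (20.6%, against 17.6%) and in 0 with it (against 13.5%). 12 of the 34 tested members had under 50 reads in at least 1 of the 6 libraries, so the lower members such as Ifit1, Mx1, Mx2, Usp18 and Zbp1 are less precise than the rest.

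**Figure D2:**
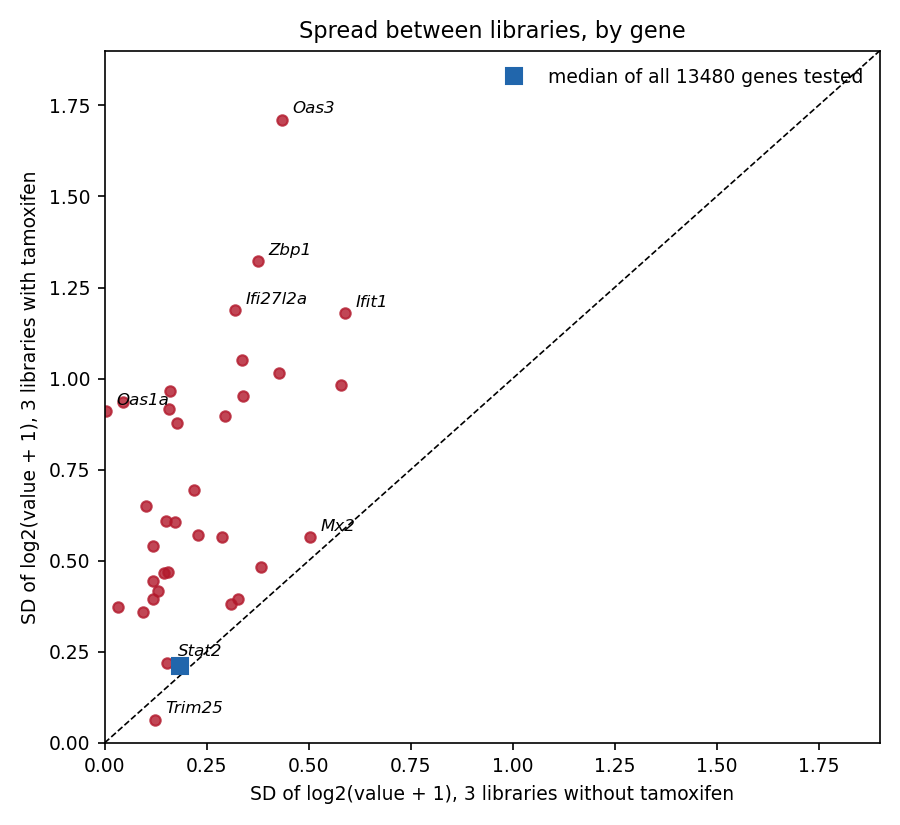
SD of log2(value + 1) between the 3 libraries with tamoxifen (vertical axis) against the SD between the 3 without it (horizontal axis), one point per tested member, with the median of all genes tested as a square and the line of equality dashed. Every member but Trim25 lies above the line, and Oas3 is farthest from it, at 1.71 against 0.43.

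The spread took a similar shape in most members. Tamoxifen_2 was the lowest of the 6 libraries in 29 of 34 members (85.3%, against 20.9% of all genes), and tamoxifen_3 was the highest in 25 of 34 (73.5%, against 21.5%). The highest library was tamoxifen_1 in 7 members (against 15.3% of all genes), no_tamoxifen_1 for Ifih1 (12.1%) and no_tamoxifen_2 for Gbp3 (20.6%), and in 0 members no_tamoxifen_3 (14.1%) or tamoxifen_2 (16.3%). The lowest was no_tamoxifen_2 in 4 members (16.3%) and no_tamoxifen_1 for Isg20 (13.2%), and in 0 members no_tamoxifen_3 (10.9%), tamoxifen_1 (21.9%) or tamoxifen_3 (16.9%). Most members thus had both extremes among the tamoxifen libraries. This order was not particular to the members: of 16 macrophage markers, tamoxifen_3 was the highest library in 10 and tamoxifen_2 the lowest in 11. Tamoxifen_3 lay above every library without tamoxifen in 30 members (88.2%, against 29.3% of all genes) and tamoxifen_2 in 3 (26.7%). Tamoxifen_1 lay above all 3 in 13 members and below all 3 in 7 (38.2% and 20.6%, against 28.9% and 34.3% of all genes). Relative to the mean of the libraries without tamoxifen, the median member differed by 0.02 in tamoxifen_1, by -0.74 in tamoxifen_2 and by 0.56 in tamoxifen_3 on the log2(value + 1) scale. The same median over all genes tested was -0.03, -0.04 and 0.02. Between tamoxifen_3 and tamoxifen_2 the median member differed by 1.16, and Oas3 by 3.41.

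**Figure D3:**
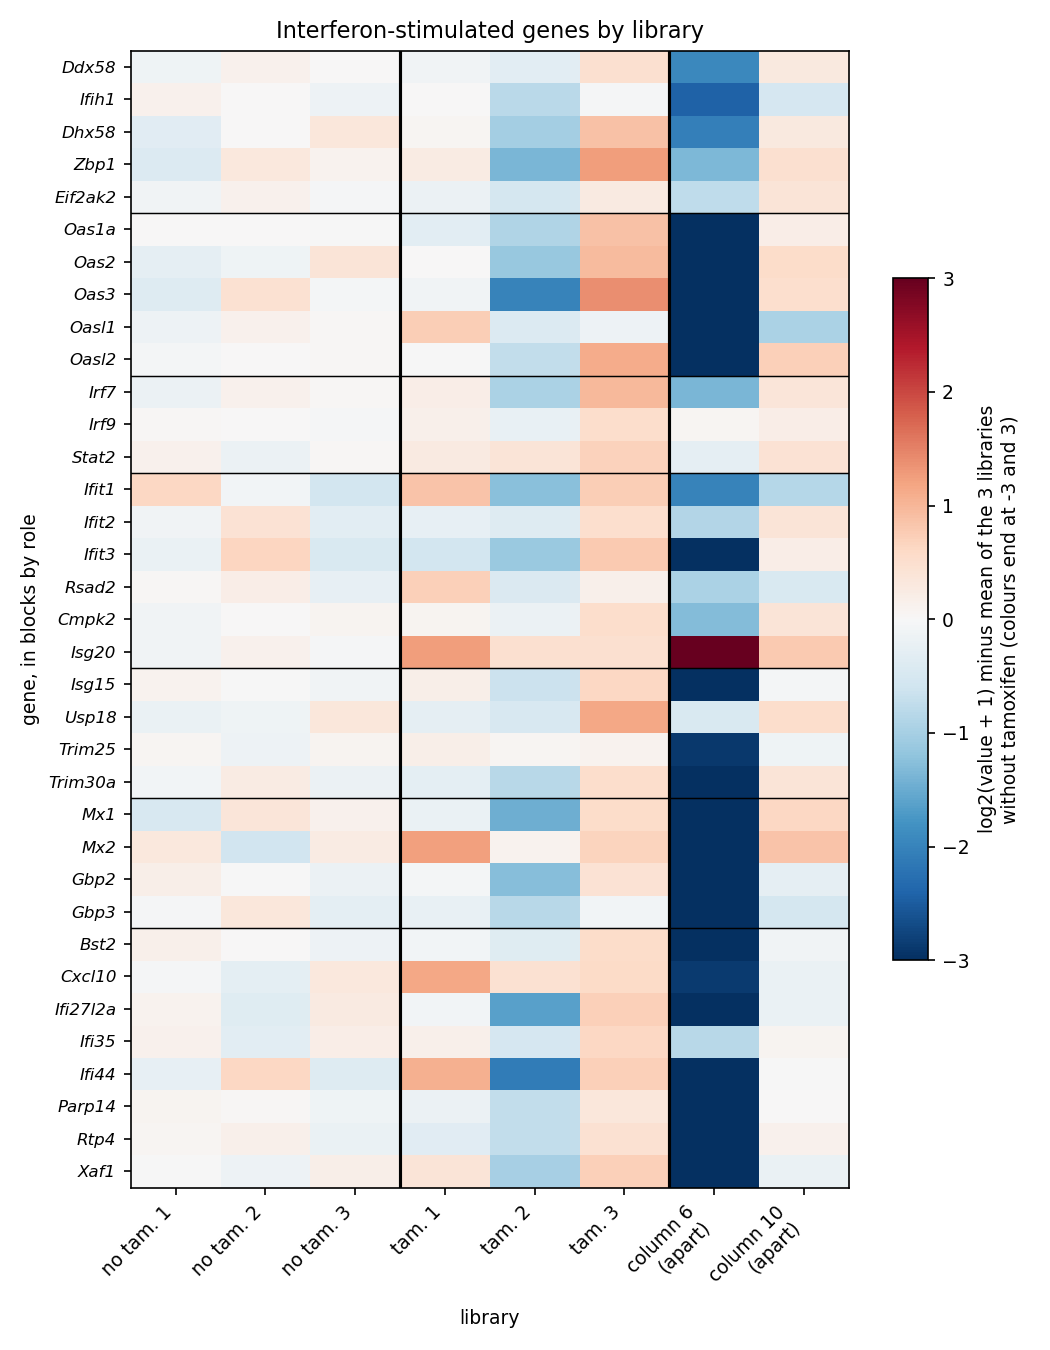
Log2(value + 1) of each of the 35 members in each library, minus its mean over the 3 libraries without tamoxifen, in blocks by role, with columns 6 and 10 of the table to the right. Tamoxifen_2 is below that mean in most rows and tamoxifen_3 above it, and column 6 is far below it in most rows, with Isg20 above it.

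Among sensors of viral nucleic acid, Eif2ak2 encodes the kinase PKR, which halts translation on binding double-stranded RNA. Without tamoxifen it stood at 434, 508 and 452 normalised reads in libraries 1, 2 and 3, and with tamoxifen at 408, 322 and 557. The tamoxifen values lay on either side of the others, and the log2 fold change was -0.15 ± 0.19 (SE, limma adjusted p = 0.845). Ifih1, which encodes the RNA helicase MDA5, had 403, 368 and 329 normalised reads without tamoxifen and 371, 207 and 356 with it. Only its second tamoxifen library fell outside the range of the other group, and the change was -0.28 ± 0.22 (SE, limma adjusted p = 0.720). Ddx58, the gene of RIG-I, and Dhx58, the gene of the related helicase LGP2, spanned 221 to 386 and 67.5 to 255 normalised reads with tamoxifen. Zbp1, whose product senses Z-form nucleic acid, spanned 16.2 to 105 with tamoxifen and 32.1 to 54.0 without it. In all 5 sensors tamoxifen_2 was the lowest library, and 0 of 5 passed the test.

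The 2'-5'-oligoadenylate synthetase family makes the second messenger that activates RNase L, and it held the widest spread. Oas2 was at 207, 229 and 324 normalised reads without tamoxifen and at 251, 112 and 483 with it. Its means were 254 ± 62.1 and 282 ± 187 (SD, n = 3 each), with a log2 fold change of -0.06 ± 0.46 (SE, limma adjusted p = 0.979). The mean was higher with tamoxifen on the linear scale and lower on the log scale, and the difference was within the error. Oas3 was at 57.3, 105 and 72.3 without tamoxifen and at 70.7, 18.1 and 202 with it, so the tamoxifen libraries spanned 10.7-fold on the value + 1 scale.

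Oas1a was nearly level without tamoxifen and not with it. It stood at 179.6, 179 and 179 normalised reads without tamoxifen and at 143, 95.01 and 330.3 with it. Its 3 libraries without tamoxifen were closer to each other than counting error alone would place them on average, and those with tamoxifen spanned 3.45-fold. Oasl1 and Oasl2 encode OAS-like proteins. Oasl1 was at 167, 205 and 190.2 without tamoxifen and at 314, 139.7 and 168 with it (0.06 ± 0.28, SE, limma adjusted p = 0.968), so its highest library was tamoxifen_1 and not tamoxifen_3. Oasl2 went from 150.1 to 159.8 without tamoxifen and from 92.2 to 337 with it. Oas2, Oas3 and Oas1a lie near one another on chromosome 5, at 120730333 to 120749853, 120753098 to 120777661 and 120896256 to 120907521 (GRCm38, minus strand). How the authors' counting divided reads among related family members is uncertain.

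Of the transcription factors that drive the response, Stat2 showed no overlap between groups. It was at 378, 307 and 354 normalised reads without tamoxifen and at 419, 448 and 561 with it, means of 346 ± 36.3 and 476 ± 75.0 (SD, n = 3 each). The log2 fold change was 0.45 ± 0.15 (SE, limma adjusted p = 0.475), which did not pass. Irf9, the DNA-binding subunit of ISGF3, was at 342, 335 and 327 without tamoxifen and at 375, 289 and 485 with it (0.16 ± 0.19, SE, limma adjusted p = 0.812). Part of Irf9 overlaps the neighbouring gene Rnf31 on the same strand in the annotation. Irf7 was at 187, 232 and 216 without tamoxifen and at 243, 108 and 412 with it, so its tamoxifen libraries enclosed the others on both sides. Irf7 overlaps Phrf1 on the opposite strand, and the sources used here do not say whether counting used the strand.

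Besides Stat2, the groups failed to overlap in Cxcl10 and Isg20, all 3 with tamoxifen above (8.82% of members, against 6.24% of all genes), and in 0 members with tamoxifen below (against 7.62% of all genes). Cxcl10, which encodes a chemokine that attracts activated lymphocytes, was at 256, 212 and 326 normalised reads without tamoxifen and at 584, 357 and 386 with it. Its means were 264 ± 57.5 and 442 ± 124 (SD, n = 3 each), with a change of 0.73 ± 0.23 (SE, limma adjusted p = 0.462). Leaving out tamoxifen_3 brought Cxcl10 past the threshold (limma adjusted p = 0.0218), in a fit with 2 tamoxifen libraries that called 1442 genes in all. Column 10 had 227 normalised reads of Cxcl10, inside the range without tamoxifen. Isg20, which encodes an exonuclease that degrades viral RNA, was at 17.4, 20.5 and 18.3 without tamoxifen and at 46.1, 26.6 and 26.7 with it (0.75 ± 0.35, SE, limma adjusted p = 0.575). Cxcl10 lies within the span of Art3, annotated on the opposite strand.

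**Figure D4:**
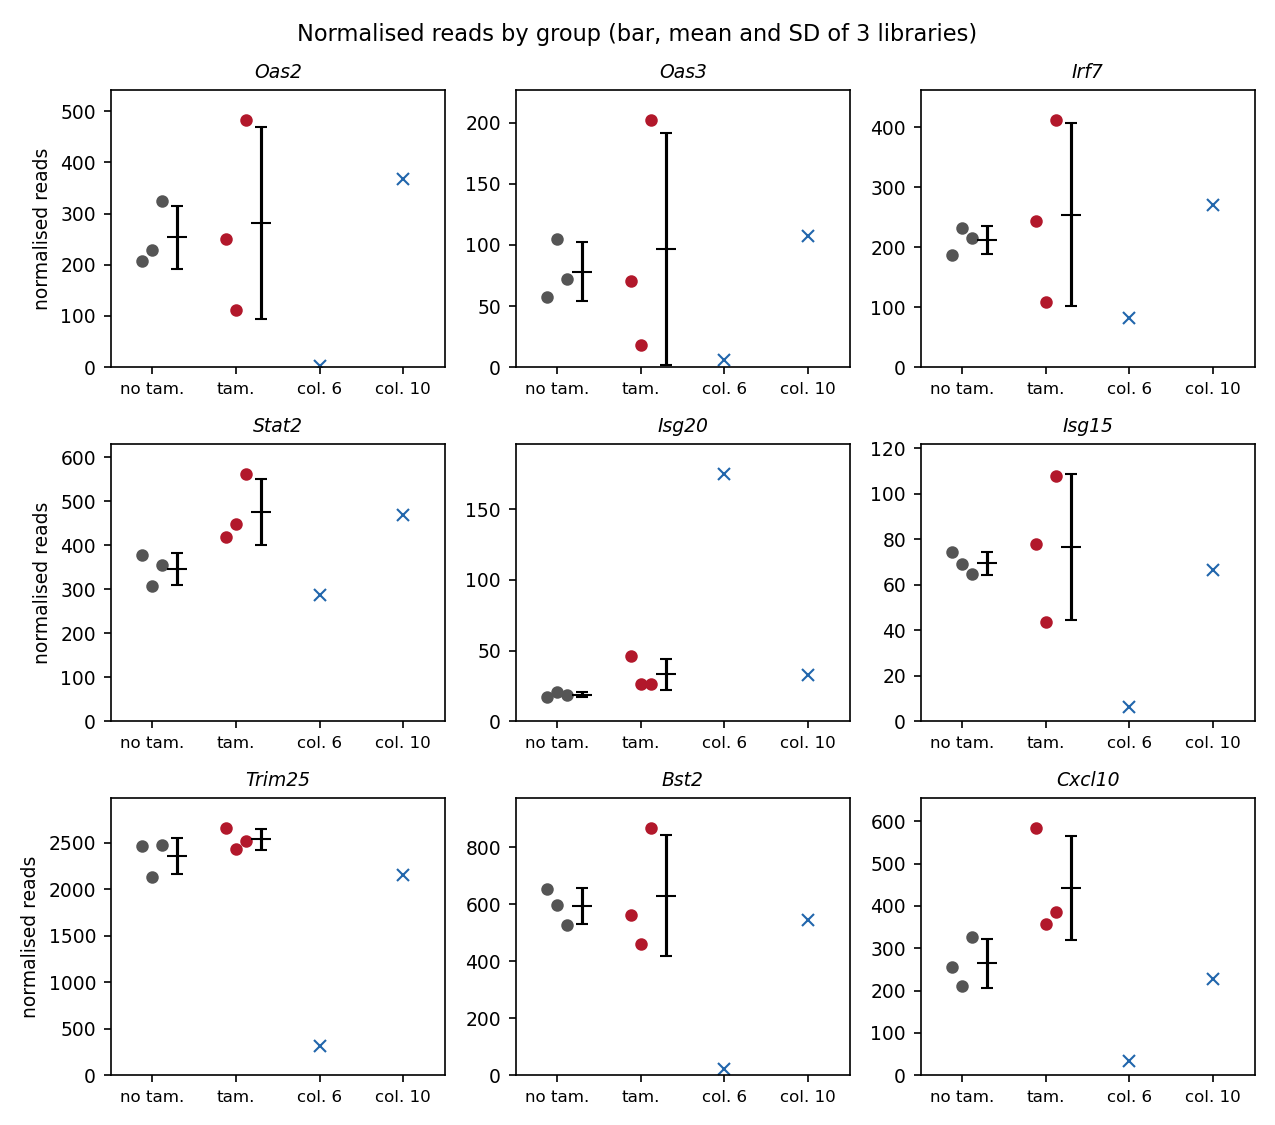
Normalised reads of 9 members in the 3 libraries without tamoxifen (grey points) and the 3 with it (red points), with the mean and SD beside each group, and columns 6 and 10 as crosses. The tamoxifen points of Oas2, Oas3, Irf7, Isg15 and Bst2 lie on both sides of the other group, those of Stat2, Cxcl10 and Isg20 lie above it, and the 3 points of Trim25 lie close together.

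The IFIT proteins bind viral RNA and block its translation. Ifit1 was at 30.4, 18.4 and 12.9 normalised reads without tamoxifen and at 35.9, 7.60 and 33.0 with it. Ifit3 was at 42.5, 76.7 and 35.004 without tamoxifen and at 32.8, 21.9 and 84.9 with it. These were the 2 tested members that also spread by over 2-fold without tamoxifen, at low counts. Ifit2 was at 93.6 to 158 without tamoxifen and at 89.3 to 168 with it. The 3 genes lie on chromosome 19, Ifit2 at 34550694 to 34576419, Ifit3 at 34583531 to 34588731 and Ifit1 at 34640871 to 34650009 (GRCm38, plus strand).

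Rsad2 and Cmpk2 are neighbours on chromosome 12 in opposite orientation, at 26442746 to 26456452 and 26469204 to 26479837 (GRCm38). Rsad2 encodes viperin, which makes a chain-terminating nucleotide, and was at 161, 181 and 132 normalised reads without tamoxifen and at 257, 116 and 176 with it (0.14 ± 0.28, SE, limma adjusted p = 0.901). Cmpk2, which encodes a mitochondrial nucleotide kinase, was at 154, 167 and 176 without tamoxifen and at 176, 146 and 239.9 with it (0.15 ± 0.20, SE, limma adjusted p = 0.851). Rsad2 was highest in tamoxifen_1 and Cmpk2 in tamoxifen_3, so these neighbours did not share a library order at the top, while tamoxifen_2 was the lowest of the 6 in both.

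Isg15 encodes the ubiquitin-like protein that is attached to newly made proteins during the response. It was at 74.6, 69.1 and 64.7 normalised reads without tamoxifen and at 77.9, 43.7 and 108 with it. Its tamoxifen libraries again lay on both sides of the other group. Usp18, whose product removes ISG15 and restrains the interferon receptor, was at 26.9 to 39.6 without tamoxifen and at 21.9 to 70.8 with it. Trim30a, which encodes a TRIM family protein, was at 474, 594 and 444 without tamoxifen and at 407, 279 and 727 with it (-0.20 ± 0.31, SE, limma adjusted p = 0.873). Trim25 stood apart from the other members, at 2462, 2127 and 2475 without tamoxifen and at 2656, 2433 and 2519 with it. It was the most abundant member in reads and the 1 member whose SD was smaller with tamoxifen, 0.06 against 0.12 (0.11 ± 0.10, SE, limma adjusted p = 0.766).

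Of the dynamin-like GTPases, Gbp2 and Gbp3 encode guanylate-binding proteins that act on vacuoles of intracellular pathogens. Gbp2 was at 101, 88.6 and 78.4 normalised reads without tamoxifen and at 85.0, 36.1 and 119.9 with it (-0.30 ± 0.40, SE, limma adjusted p = 0.846). Gbp3 was at 154, 201 and 128 without tamoxifen and at 134, 88.4 and 149 with it, the most negative change of any tested member (-0.38 ± 0.25, SE, limma adjusted p = 0.658). Mx1 and Mx2 encode GTPases that block viral ribonucleoproteins. Mx1 ran from 16.2 in tamoxifen_2 to 68.0 in tamoxifen_3, and from 33.0 to 59.4 without tamoxifen. Mx2 was highest in tamoxifen_1, at 59.4, and lowest in no_tamoxifen_2, at 16.2.

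Bst2, the member with the highest level per length, was at 653, 597 and 527 normalised reads without tamoxifen and at 561, 459 and 867 with it (0.04 ± 0.22, SE, limma adjusted p = 0.971). Parp14, which encodes an ADP-ribosyltransferase, was at 1224, 1181 and 1046 without tamoxifen and at 1024, 689 and 1455 with it (-0.19 ± 0.24, SE, limma adjusted p = 0.841). Both had tamoxifen_2 below and tamoxifen_3 above every library without tamoxifen. Ifi27l2a ranged from 35.2 to 182 with tamoxifen and from 86.4 to 133 without it. Rtp4, which encodes a receptor transporter protein, ranged from 75.1 to 173 with tamoxifen and from 110.3 to 139 without it. Ifi35 and Xaf1, which encodes an adaptor that promotes cell death, spanned 128 to 281 and 22.8 to 77.9 with tamoxifen. Ifi44 was at 6.07, 11.9 and 5.33 without tamoxifen and at 16.4, 0.95 and 12.6 with it, too low to be tested.

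Other cell types moved with the libraries, and their part in the spread was not tested. Macrophage transcripts were abundant in all 6 libraries although the cells were sorted as endothelial. The summed level of 16 macrophage markers was 51502 to 59442 normalised reads without tamoxifen and 41199, 39173 and 62811 in tamoxifen_1, tamoxifen_2 and tamoxifen_3. Their mean of log2(value + 1) was 10.80 to 10.93 without tamoxifen and 10.40, 10.34 and 11.01 with it. The interferon-stimulated genes had a mean of 7.16 to 7.24 without tamoxifen and 7.33, 6.52 and 7.80 with it. In a bulk library, fewer cells of a type and less RNA per cell cannot be told apart. The median SD was also larger with tamoxifen for macrophage (0.40 against 0.15), endothelial (0.77 against 0.32) and mesenchymal markers (2.31 against 0.64). Among the cell type lists only megakaryocyte markers went the other way (0.42 against 0.47).

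Tamoxifen_1 and tamoxifen_2 had nearly the same macrophage level and differed in the interferon-stimulated genes. The macrophage means of 10.40 and 10.34 stood beside member means of 7.33 and 6.52. Tamoxifen_2 was below tamoxifen_1 in 33 of 34 members (97.1%, against 49.0% of all genes), all but Stat2, with a median difference of 0.72 on the log2 scale. Over 9 mesenchymal markers the mean in these libraries was 10.51 and 10.91, where tamoxifen_3 had 7.03 and the untreated libraries 5.74 to 6.96. For endothelial markers tamoxifen_1 and tamoxifen_2 had 10.48 and 10.52, tamoxifen_3 had 9.24, and the untreated libraries ran from 9.85 to 10.48. Neutrophil, monocyte and dendritic, lymphoid and megakaryocyte means were lower in tamoxifen_2 than in tamoxifen_1. Mural, erythroid, epithelial and hepatocyte means were higher. The part of any of these cells in the member difference was not tested.

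Markers of other cells are given by the same mean, and 0 marker genes passed the test. Neutrophil markers averaged 10.08, 9.79 and 11.07 in tamoxifen_1, tamoxifen_2 and tamoxifen_3 (untreated 9.81 to 10.77). Monocyte and dendritic markers averaged 8.09, 7.84 and 7.44 (untreated 7.34 to 7.66). Lymphoid markers averaged 7.62, 7.03 and 5.10 (untreated 3.65 to 5.34), so tamoxifen_1 and tamoxifen_2 were above the other libraries. Y-linked genes averaged 7.64 to 7.96 in the tamoxifen libraries (untreated 4.74 to 7.15) and the X inactivation genes 11.61 to 12.25 (untreated 12.65 to 13.40). The part of these genes' source in the results was not tested. Erythroid markers averaged 5.36 to 6.88 (untreated 5.36 to 5.61) and mural markers 4.32 to 7.10 (untreated 4.71 to 5.74). Megakaryocyte markers averaged 6.56 to 6.67 (untreated 6.44 to 6.71), epithelial markers 3.59 to 5.25 (untreated 4.12 to 5.40) and hepatocyte markers 3.92 to 6.29 (untreated 3.75 to 5.0001). No marker list shared a gene with the members.

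**Figure D5:**
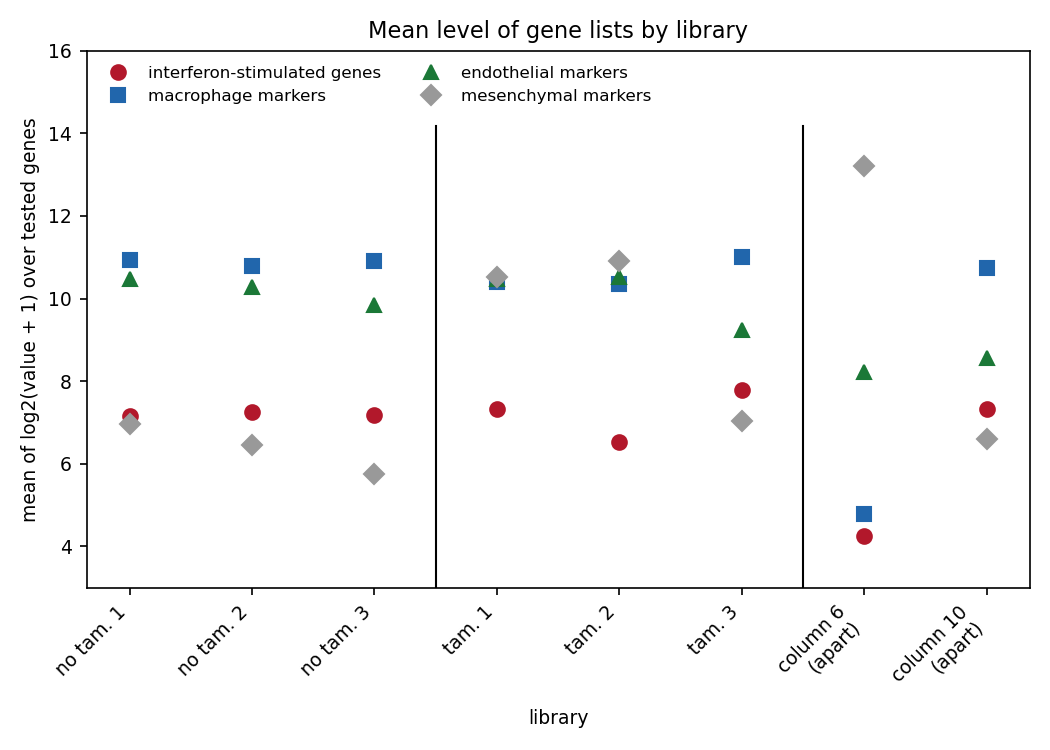
Mean of log2(value + 1) over the tested genes of 4 lists in each library, with columns 6 and 10 of the table to the right. The interferon-stimulated genes span 6.52 to 7.80 in the tamoxifen libraries and 7.16 to 7.24 in the untreated ones. In column 6 they, the macrophage markers and the endothelial markers are all lowest while the mesenchymal markers are highest.

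Column 6 had few macrophage transcripts and low levels of most members. Csf1r, which encodes the macrophage growth factor receptor, was at 151 normalised reads there, against 7464 to 12229 in the 6 libraries, and the macrophage sum was 1180. The collagen gene Col1a1 was at 233293 there, against 896 to 42746 in the 6. Endothelial Cdh5 was at 747, against 1978 to 5201. In that column 30 of 34 members lay below all 6 libraries (88.2%, against 43.5% of all genes). Oas1a, Ifi27l2a, Xaf1 and Ifi44 were listed at 0, where a count of 0 allows up to 6.10 normalised reads, and 12 more members had 1 to 3 reads. Trim30a was at 4.07, Oas2 at 2.03 and Bst2 at 22.4 normalised reads.

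The other 4 tested members did not lie below the 6 libraries. Irf9 was at 348 normalised reads, within the 289 to 485 of the 6 libraries, Usp18 at 22.4, within 21.9 to 70.8, and Zbp1 at 16.3, beside a lowest value of 16.2. Isg20 was at 175, above all 6 libraries, whose highest was 46.1, and it was the 1 member above them (2.94%, against 37.4% of all genes). Stat2 was at 287 and Eif2ak2 at 275, below the lowest values of 307 and 322. The group of column 6 depends on the placement of the header, so its values are in neither group of the tests above.

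Column 10 had a mean over the members of 7.32, close to tamoxifen_1 and above the untreated range. Its macrophage mean of 10.74 lay below the untreated 10.80 to 10.93 and above the 10.40 of tamoxifen_1. Its summed endothelial level of 5661 lay below all 6 libraries (8739 to 21316). Its mesenchymal mean was 6.60, against 10.51 in tamoxifen_1 and 5.74 to 6.96 in the untreated libraries. Column 10 lay above every library without tamoxifen in 16 members (47.1%, against 25.6% of all genes) and below every one in 7 (20.6%, against 29.4%). It was above all 6 libraries in 2, Eif2ak2 and Mx1 (5.88%, against 15.2%). Oas2 was at 368 and Irf7 at 271 normalised reads there, above the libraries without tamoxifen. Oasl1 was at 95.9 and Rsad2 at 115, below all 3 of them.

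The genes upstream of the response held 0 past the test. Of the interferon genes, 9 of 16 were listed at 0 in all 6 libraries and 1 was tested. That was Ifnb1, the gene of interferon beta, at 15.6, 19.4 and 12.2 normalised reads without tamoxifen and at 15.4, 8.55 and 2.81 with it (-0.97 ± 0.62, SE, limma adjusted p = 0.649). Its lowest value was in tamoxifen_3, the library in which most members were highest. At these counts the order rests on few reads.

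The tested receptor and kinase genes were abundant and close between libraries. Ifnlr1, which encodes a chain of the type III receptor, was too low to be tested, at 0 to 6.31 normalised reads in the 6 libraries. Of 9 tested, 0 passed in either direction. Tamoxifen_3 was the highest library in 4 of the 9 and tamoxifen_2 the lowest in 5 (against 21.5% and 20.9% of all genes). The median SD of the 9 with tamoxifen was 0.19, against 0.61 for the interferon-stimulated genes and 0.21 for all genes. Without tamoxifen it was 0.10, against 0.18 for the interferon-stimulated genes and 0.18 for all genes. Ifnar1, which encodes a chain of the type I receptor, was at 1826, 1795 and 1648 normalised reads without tamoxifen and at 1435, 1395 and 1738 with it (-0.21 ± 0.12, SE, limma adjusted p = 0.605). Its partner Ifnar2 was at 1067 to 1127 without tamoxifen and at 1053 to 1288 with it (0.07 ± 0.11, SE, limma adjusted p = 0.880). Ifngr1, a chain of the interferon gamma receptor, had the lowest p among receptor genes beside Ifnar1, at -0.19 ± 0.12 (SE, limma adjusted p = 0.639).

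Of 18 tested genes that lead to interferon production, 0 passed. Tamoxifen_3 was the highest library in 12 of them and tamoxifen_2 the lowest in 9 (against 21.5% and 20.9% of all genes). Irf1, which encodes a transcription factor of the interferon gamma response, was at 1116, 1025 and 999.9 normalised reads without tamoxifen and at 1292, 1299 and 1638 with it (0.42 ± 0.12, SE, limma adjusted p = 0.462). Tbk1, the gene of the kinase that activates IRF3, was at 756 to 887 without tamoxifen and at 590.0 to 702 with it (-0.31 ± 0.12, SE, limma adjusted p = 0.516). Irf3 was at 450.5 to 495 without tamoxifen and at 366 to 497 with it (-0.08 ± 0.15, SE, limma adjusted p = 0.896). Of 12 tested genes that restrain the response or clear nucleic acid, 0 passed. The lowest p values there were those of Ptpn2, a phosphatase gene (-0.46 ± 0.18, SE, limma adjusted p = 0.516), and Socs1, which encodes a JAK inhibitor (0.72 ± 0.30, SE, limma adjusted p = 0.532).

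A further 35 tested interferon-stimulated genes outside the set held 0 past the test. Their median log2 fold change was -0.07, and 11 were positive (against 46.5% of all genes). Tamoxifen_3 was the highest library in 23 of these 35 and tamoxifen_2 the lowest in 22 (against 21.5% and 20.9% of all genes). The median SD was 0.45 with tamoxifen and 0.18 without it. This list was put together with earlier results of these data known. In column 6, 31 of these 35 lay below all 6 libraries (against 43.5% of all genes). Uba7 and Ube2l6 lay above all 6 there, at 1650 and 1233 normalised reads. In the 6 libraries they were at 319 to 584 and at 54.3 to 141. Slfn2, a Schlafen family gene, was at 1715, 1700.4 and 1443 normalised reads without tamoxifen and at 818, 628 and 1489 with it (-0.82 ± 0.28, SE, limma adjusted p = 0.475). Oas1b was at 6.94 to 9.13 without tamoxifen and at 12.4 to 27.4 with it (1.14 ± 0.47, SE, limma adjusted p = 0.536). Of 11 tested GTPase genes induced mainly by interferon gamma, 0 passed. Tamoxifen_3 was the highest library in 3 of them and tamoxifen_2 the lowest in 5 (against 21.5% and 20.9% of all genes). Column 6 was below all 6 libraries in 10 of the 11 (against 43.5%). Iigp1 was above them there, at 38.7 normalised reads against 6.85 to 20.5. Gbp5 (0.53 ± 0.20, SE, limma adjusted p = 0.501) and Gbp4 (0.53 ± 0.32, SE, limma adjusted p = 0.632) had the lowest p values among the 11.

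The tested members with a promoter window were 15 with a matched response element and 10 without one. Their median SD was 0.57 and 0.52 among the tamoxifen libraries, and 0.18 and 0.14 among the untreated ones. The median log2 fold change was -0.12 with a match and 0.10 without. In column 6 the median member stood at 8.36% of its 6-library mean with a match and at 36.5% without. The split was not tested.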

How the data were processed

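RNA-seq was compared in 6 libraries, with 2 more shown apart. The authors deposited a signal per gene, read counts already divided by a factor per library; per the submitters' processing notes the tools were STAR, HTSeq 0.11.2 and DESeq2 and the builds hg38 and mm10, with no roles given. In every column used, 100% of values were whole multiples of 1 step (tolerance 0.001 reads), which gave whole reads. The 6 libraries held 12212472 to 19908404 reads in genes, of which the ribosomal RNA precursor Rn45s took 29.4% to 38.7%. 1 value column was not used.

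Genes with a mean of at least 10 entered a limma model (version 3.58.1, R 4.3.3) of log2(value + 1) on group alone, with the prior variance following the mean and p adjusted by Benjamini-Hochberg at 0.05. That scale understates changes of low genes. For each gene the model took the same residual variance in both groups. The members had a median SD of 0.61 with tamoxifen and 0.18 without it. The limma errors, intervals and p-values do not allow for that difference. Alternatives used edgeR 4.0.16 and DESeq2 1.42.0 on recovered reads. In simulated 3 against 3 data for 13480 genes, limma recovered 44% of genes changed 2-fold and 97.3% at 4-fold. The simulation gave all genes the same dispersion in both groups. It did not copy the wide spread of the members with tamoxifen (median SD 0.61), so these rates cannot be carried over to them.

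The members and all lists were chosen with earlier results of these data known. Of 209 symbols in pathway and marker lists, 198 were found as written and 9 under an older RefSeq symbol. Named with statistics are the 2 most abundant members of each of 7 roles, Cxcl10 and Isg20 (chosen after their values were seen), and, per pathway list, the 2 genes of lowest p with Ifnar1, Ifnar2, Irf1 and Irf3; 1 further gene of that rule is not reported here. Other members named with library values were chosen after these were seen. Coordinates are 1-based, from GENCODE M21 on GRCm38.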

Additional observations from a re-analysis of the deposited data

Results flagged for a closer look

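Some values of members in the columns shown apart lay above all 6 compared libraries. Isg20 was at 175 normalised reads in table column 6, where most members were lowest. Eif2ak2 was at 609 and Mx1 at 71.4 normalised reads in table column 10. The highest of the 6 libraries were 46.1, 557 and 68.0 for these genes.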

How the results depend on the processing

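The count of 0 members called held in all alternatives but one, and the median log2 fold change of the members, 0.04, was at 0.01 to 0.18 in those that kept the 6 libraries or added column 10. Leaving out 1 library moved that median from -0.36 (without tamoxifen_3) to 0.33 (without tamoxifen_2), members called from 0 to 1 and all genes called from 2 to 1442, beside 6 with all libraries. Without no_tamoxifen_1, no_tamoxifen_2 and no_tamoxifen_3 the calls over all genes were 3, 2 and 2. The calls over all genes were 3 in limma without the trend and 275 in DESeq2. Same-numbered libraries had deviations correlated at 0.195, 0.0364 and 0.345, the second too low to count the numbers as a pairing, and not every library correlated best with its own number. With the replicate block 21 genes and 0 members were called. Placing the header over the last 8 columns of values gave a median of 0.73 and an SD without tamoxifen of 1.59, and with the names over the first 8 the median was -0.72, the SD with tamoxifen 1.68 and the calls 0, because column 6 changes group. The SD otherwise ran from 0.43 to 0.82 with tamoxifen and from 0.15 to 0.18 without it when 1 library was left out.

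Signs of single members followed the libraries. Oas2 was at 0.18 in edgeR, 0.16 in DESeq2 and 0.10 with column 10 added, where Oasl1 was at -0.19 and Rsad2 at -0.0045. With the names over the last 8 columns Ifih1 was at 0.27, Eif2ak2 at 0.18, Oas2 at 1.69, Trim30a at 1.60, Gbp2 at 0.62, Gbp3 at 0.82, Parp14 at 0.68 and Isg20 at -0.033. With the names over the first 8, Oasl1 was at -1.14, Rsad2 at -0.13, Cmpk2 at -0.21, Trim25 at -0.64, Bst2 at -1.14 and Cxcl10 at -0.17. Across the leave-outs the change ran from -0.35 to 0.040 for Eif2ak2, -0.57 to 0.48 for Oas2, -0.29 to 0.30 for Oasl1, -0.024 to 0.35 for Irf9, -0.14 to 0.44 for Rsad2, -0.045 to 0.31 for Cmpk2, -0.57 to 0.12 for Trim30a, -0.67 to 0.18 for Gbp2, -0.22 to 0.24 for Bst2 and -0.45 to 0.088 for Parp14. The cause was not tested beyond the library or column each setting changes. Stat2 kept its sign in every alternative run.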
